A study of Mus musculus with 12 samples.

Results

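Translation initiation factors are the proteins that bring the initiator tRNA, the mRNA and the ribosomal subunits together at the start codon. The genes described here are the rows of the authors' gene table whose name begins with Eif1 to Eif6, without the eIF2 alpha kinases (names beginning with Eif2ak), and whose transcript type includes protein coding. There are 64 of them among 27487 genes in the table, and 48 of the 64 had enough counts to be tested. A further 8 rows with such names are not listed as protein coding and are not members.

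The study measured polyadenylated RNA of BV2 cells, an immortalised mouse line of microglia, in 12 libraries of 4 per group. In CTR the BV2 cells were cultured alone, in Neu they were cultured with primary mouse neutrophils, and in Neu+NETS they were cultured with such neutrophils after treatment with PMA (phorbol 12-myristate 13-acetate), a phorbol ester under which neutrophils shed extracellular traps of DNA and granule proteins (NETs). The design addresses the effect of neutrophils and of their traps on microglial transcripts. All groups share the BV2 line, so every value comes from 1 transformed line and not from primary microglia. PMA and the traps come together in Neu+NETS and cannot be told apart by the design. No source used here gives the strain or age of the neutrophil donors, the culture times, or whether the neutrophils were removed before RNA was taken. The labels do not say if replicates are separate cultures; p-values then reflect only how far these libraries spread, and that spread may be technical.

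In textbook terms, eIF2 with GTP carries the initiator tRNA to the small ribosomal subunit, where eIF1, eIF1A, eIF3 and eIF5 bind too. The eIF4 factors recognise the mRNA cap, unwind the leader and tie the mRNA to eIF3, and the complex scans to the start codon, where GTP hydrolysis and joining of the large subunit follow. Cells adjust this step mainly through phosphorylation of eIF2 alpha, which blocks its exchange factor eIF2B, and through the 4E-binding proteins, which hold the cap-binding protein eIF4E until the kinase mTORC1 phosphorylates them. RNA sequencing measures the transcripts of these factors and neither the proteins nor their phosphorylation.

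Libraries held 53512190 to 68316549 estimated counts, at an apparent 4 units per sequenced fragment. The labels name retina as the tissue beside the BV2 line. Of 14 markers of retinal neurons and glia 7 were listed, with a summed 21.9 to 29.3 FPKM per library (FPKM scales fragments to transcript length and library size). All 13 microglia and macrophage markers were listed, with a summed 1125 to 1184 FPKM in CTR, 1130.0 to 1170 in Neu and 695 to 709 in Neu+NETS. All 13 were called lower in Neu+NETS than in CTR, among them Csf1r, the receptor for colony-stimulating factor 1, at 91.3 ± 2.99 FPKM in CTR and 26.7 ± 0.994 in Neu+NETS (mean ± SD, n = 4). The homeostatic marker P2ry12 stood at 0.658 ± 0.190 FPKM in CTR. Of 20 mature neutrophil markers S100a9, Ly6g, Ltf, Retnlg, Padi4, Ctsg and Wfdc21 were not listed. The 13 listed markers had summed levels of 9.41 to 11.9 FPKM in CTR, 20.1 to 20.9 in Neu and 1.51 to 2.04 in Neu+NETS. Of 8 tested, 4 were called higher in Neu than in CTR, which were Il1r2 (0.320 ± 0.0685 FPKM in CTR and 8.03 ± 0.302 in Neu), Mmp9 (0.548 ± 0.185 and 1.46 ± 0.0717), Lcn2 (0.223 ± 0.0644 and 0.950 ± 0.0621) and Prtn3 (0.0645 ± 0.0809 and 0.399 ± 0.0624), and Il1r2 made up most of the rise in the sum. In Neu+NETS against CTR 6 of the 8 were called lower and 0 higher. Among them, Csf3r had means of 5.15, 4.15 and 0.691 FPKM in CTR, Neu and Neu+NETS, and Hp 4.27, 5.05 and 0.479. Both were thus present in BV2 cells alone. The granule and alarmin genes S100a8 and Mpo, at 0.189 ± 0.0455 and 0.00219 ± 0.00438 FPKM in Neu, had too few counts to be tested. Mmp8, Camp, Ngp, Mpo and Elane were at 0 in all Neu+NETS libraries. Of these, Mmp8, Camp, Mpo and Elane had means of at most 0.185 FPKM in CTR and Neu, and Ngp was at 0 in all CTR libraries. The part of these marker shifts in the results on initiation factors was not tested. In bulk RNA, fewer cells of a type and less RNA per cell cannot be told apart.

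Most initiation factor transcripts were lower in Neu than in CTR and higher in Neu+NETS than in CTR. Together the 64 genes took 1.48% ± 0.0184 of all counts in CTR, 1.23% ± 0.00972 in Neu and 1.67% ± 0.00668 in Neu+NETS (mean ± SD, n = 4 libraries each). Their summed FPKM ran from 3321 to 3390 in CTR, from 2764 to 2821 in Neu and from 3736 to 3761 in Neu+NETS. No library of 1 group entered another group's range in either sum. A gene was called where edgeR's quasi-likelihood test gave an adjusted p under 0.05 (Benjamini-Hochberg over 16387 genes, two-sided). Changes are log2 fold changes ± SE unless said otherwise.

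In Neu against CTR, 35 of the 48 tested factors (72.9%) were called lower and 6 (12.5%) higher, where 27.9% and 26.1% of all tested genes were. Their median log2 fold change was -0.21, against 0.02 over all tested genes. In Neu+NETS against CTR, 31 factors (64.6%) were called higher and 7 (14.6%) lower, where 21.6% and 23.7% of all tested genes were, with a median of 0.14. In Neu+NETS against Neu, 38 factors (79.2%) were called higher and 6 (12.5%) lower, where 29.4% and 33.1% of all tested genes were, with a median of 0.34 against -0.05 over all tested genes. Both comparisons against CTR share the CTR libraries, and both that involve Neu share the Neu libraries, so the 3 sets of counts are not independent. Of the factors called, 14.6%, 81.6% and 86.4% were higher in the 3 comparisons (48.3%, 47.6% and 47.1% of all genes called), and with limma on log2(FPKM + 1) these shares were 9.76%, 92.1% and 88.6% (38.7%, 58.5% and 59.9%). FPKM ranges lay wholly below CTR in Neu for 37 factors (29% of all tested genes) and wholly above for 4 (22.5%). In Neu+NETS they lay wholly above CTR for 33 (23.7%) and wholly below for 4 (18.4%), and against Neu wholly above for 39 (32.6%) and wholly below for 5 (26.9%).

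**Figure D1:**
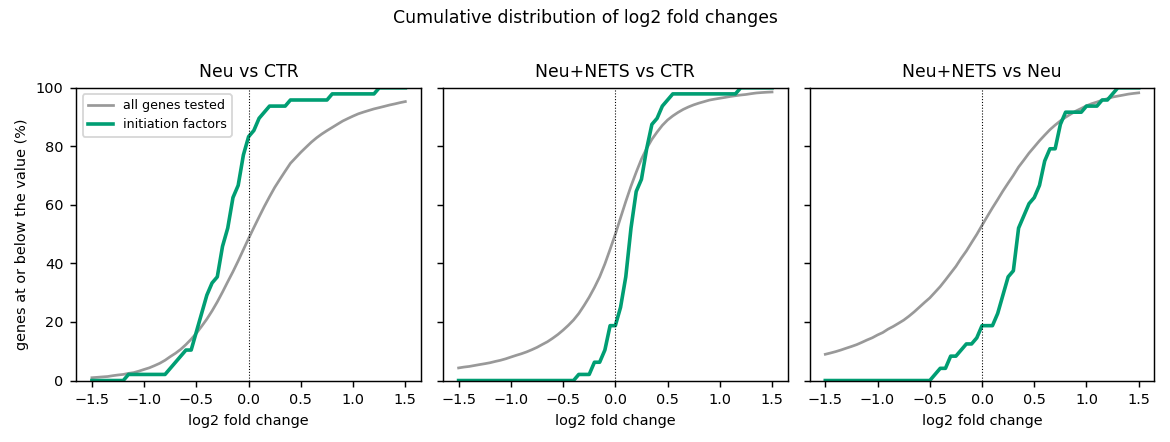
Each panel gives, for 1 comparison, the percentage of genes (y axis) with a log2 fold change at or below the value on the x axis, for the 48 tested initiation factors (green) and all 16387 tested genes (grey). The green curve lies left of the grey one through the middle of the Neu against CTR panel (medians -0.21 and 0.02) and right of it through the lower and middle part of the Neu+NETS against Neu panel (medians 0.34 and -0.05), where the curves meet and cross near the top.

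The changes were small for most factors. A log2 fold change of at least 1 in size was seen for 2 factors in Neu against CTR (Eif1ad and Eif4ebp1), for 1 in Neu+NETS against CTR (Eif4ebp1) and for 3 in Neu+NETS against Neu (Eif1ad, Eif2b3 and Eif2b4). Levels per transcript length spanned a wide range. Eif5a was the most abundant factor in all 3 groups (602 ± 11.9 FPKM in CTR), followed in all 3 by Eif4a1 (248 ± 7.01 in CTR) and Eif3h (185 ± 5.04 in CTR), and among tested factors Eif4ebp3 was the least abundant, at 0.352 ± 0.129 FPKM in CTR. Eif3b (159 ± 3.89), Eif3c (149.7 ± 1.29) and Eif4b (148 ± 1.26) came next in CTR.

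**Figure D2:**
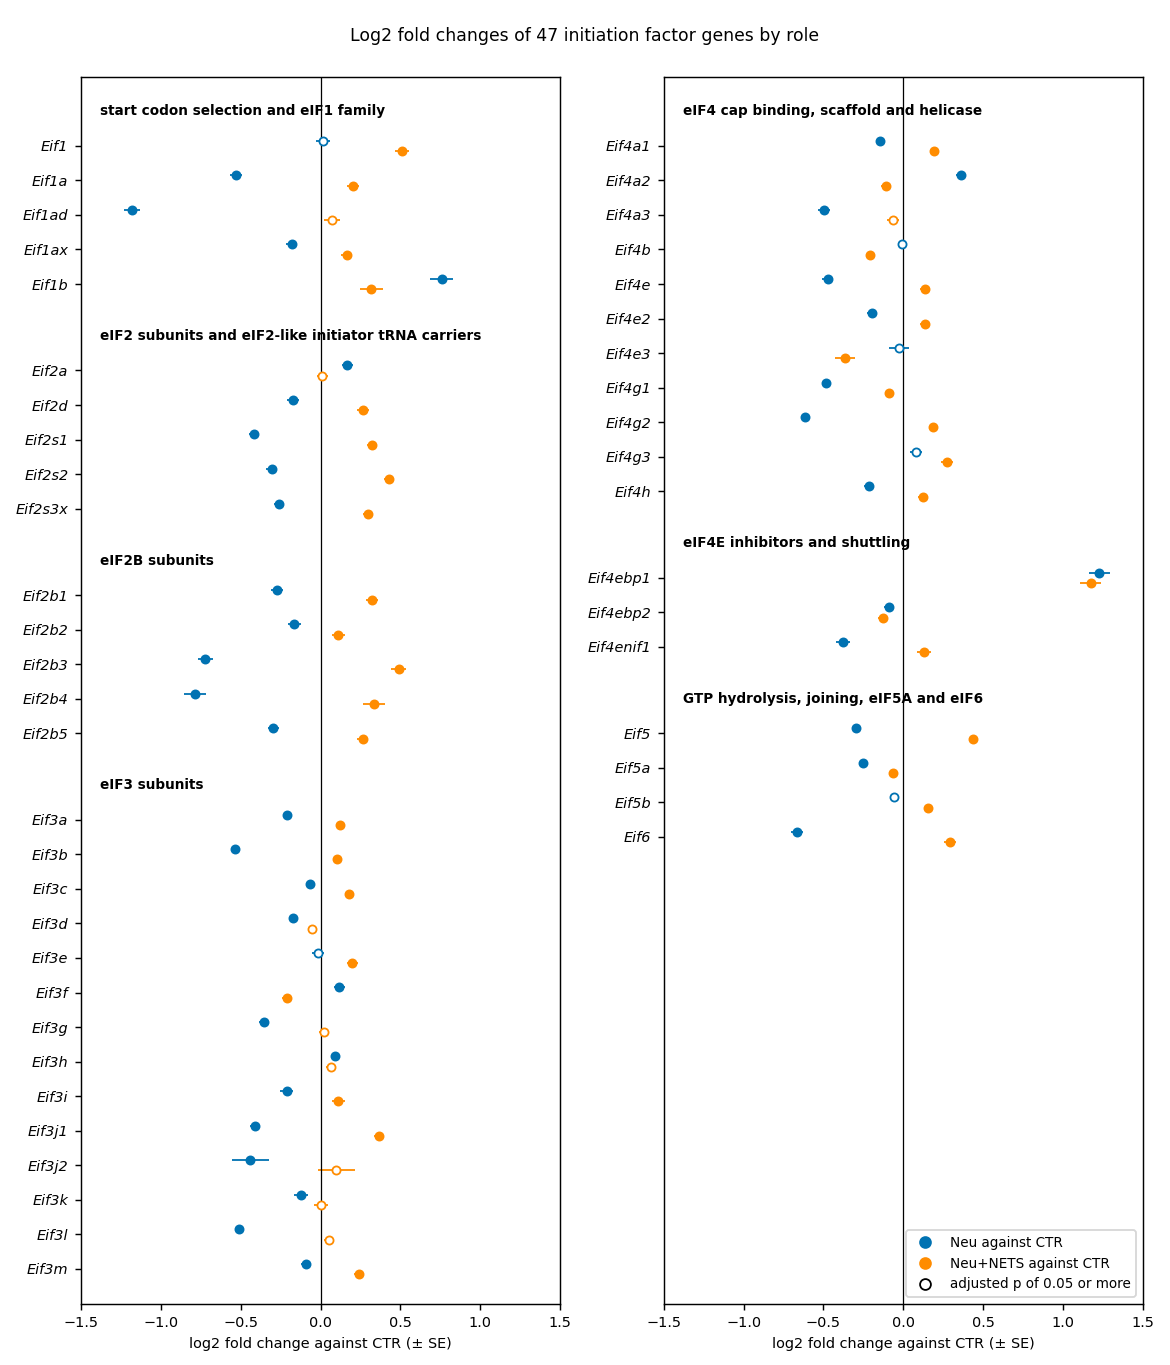
Log2 fold changes against CTR (x axis, points with SE bars) of 47 tested initiation factors, grouped by role, for Neu (blue) and Neu+NETS (orange); open points have an adjusted p of 0.05 or more. Eif4ebp3, with an SE of 0.518 in Neu, is left out. Most blue points lie left of 0 and most orange points right of it, with Eif1b, Eif4a2, Eif2a, Eif3f, Eif3h and Eif4ebp1 called higher in Neu.

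The eIF1 family, in which eIF1 and eIF1A act in choosing the start codon, split in Neu. Of 5 tested members 3 were called lower and 1 higher in Neu, and 4 were called higher and 0 lower in Neu+NETS, both against CTR. Beside these counts and those of the role groups below stand the shares over all tested genes. They were 26.1% higher and 27.9% lower in Neu, and 21.6% higher and 23.7% lower in Neu+NETS. Eif1ad, named for its eIF1A-like domain (GRCm39 chr19:5416769-5421554, plus strand), read 29.9, 32.4, 30.0 and 30.0 FPKM in the 4 CTR libraries, 12.3, 13.0, 12.9 and 13.6 in Neu and 34.4, 32.6, 35.5 and 30.5 in Neu+NETS. All 4 Neu libraries were below every other library, while the CTR and Neu+NETS ranges overlapped. Eif1ad fell 2.27-fold in Neu (-1.18 ± 0.051, adjusted p = 4.2e-12), and stood 2.39-fold higher in Neu+NETS than in Neu (1.26 ± 0.051, adjusted p = 9.4e-13). Against CTR its log2 fold change in Neu+NETS was 0.07 ± 0.049 (adjusted p = 0.258). That value was called higher with limma on log2(FPKM + 1) and without Neu+NETS replicate 4.

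Eif1, the factor that keeps the scanning ribosome from starting at poor codons (GRCm39 chr11:100210711-100212922, plus strand), read 59.7, 64.2, 61.1 and 65.4 FPKM in CTR, 61.6, 59.3, 61.6 and 60.7 in Neu and 92.6, 84.5, 97.6 and 94.1 in Neu+NETS. CTR and Neu overlapped and all Neu+NETS libraries lay above both. It rose 1.42-fold in Neu+NETS against CTR (0.51 ± 0.042, adjusted p = 3.6e-08), and its value in Neu was 0.01 ± 0.042 (adjusted p = 0.810), and turned negative with limma on FPKM and without CTR replicate 1. Eif1b, its close homolog (GRCm39 chr9:120321298-120324396, plus strand), read 11.9, 10.7, 12.7 and 11.2 FPKM in CTR, 17.8, 19.2, 19.7 and 19.0 in Neu and 15.4, 14.2, 15.9 and 14.5 in Neu+NETS. The 3 groups did not overlap, with Neu highest and CTR lowest. Eif1b rose 1.69-fold in Neu (0.76 ± 0.072, adjusted p = 1.0e-07) and 1.25-fold in Neu+NETS (0.32 ± 0.072, adjusted p = 0.0016) against CTR.

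The FPKM ratio of Eif1b to Eif1 was 0.187 ± 0.0203 in CTR, 0.312 ± 0.0155 in Neu and 0.163 ± 0.00605 in Neu+NETS. All Neu libraries (0.290 to 0.324) lay above all others, and the CTR (0.167 to 0.208) and Neu+NETS (0.154 to 0.168) ranges overlapped. Eif1a and Eif1ax, which encode near-identical forms of eIF1A, the partner of eIF1 in scanning, can share reads, so the split between them is uncertain. Eif1a went from 32.0 ± 1.27 FPKM in CTR to 21.4 ± 1.08 in Neu (-0.53 ± 0.038, adjusted p = 2.5e-09) and 38.1 ± 0.997 in Neu+NETS (0.20 ± 0.037, adjusted p = 2.3e-04). Eif1ax went from 25.7 ± 0.879 FPKM to 21.8 ± 0.472 in Neu (-0.18 ± 0.035) and 29.8 ± 0.815 in Neu+NETS (0.16 ± 0.034).

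**Figure D3:**
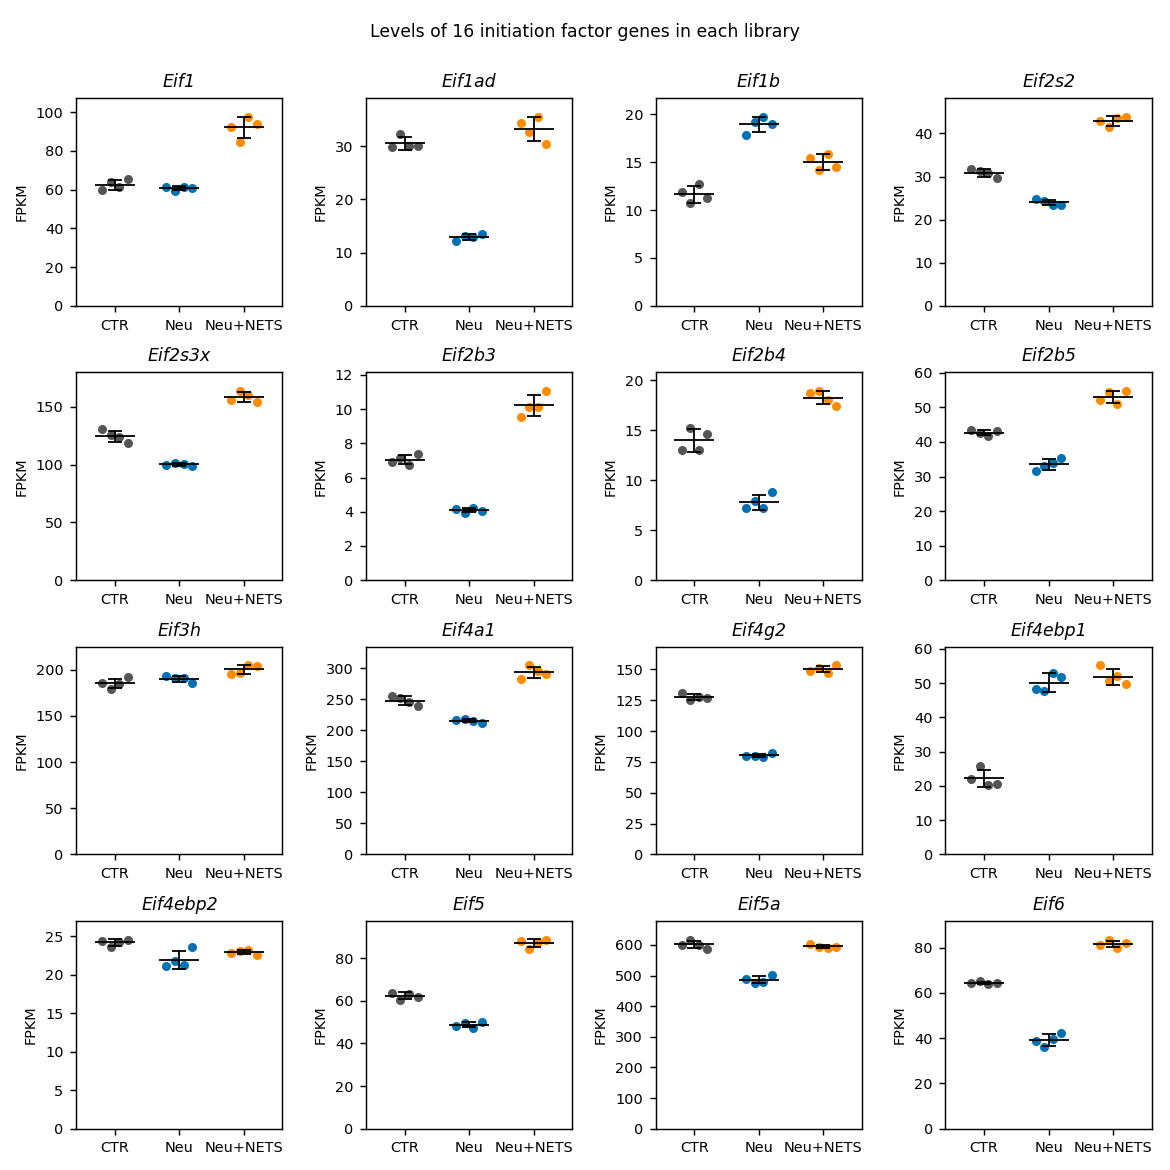
FPKM (y axis, from 0) of 16 initiation factor genes in each of the 4 libraries of CTR (grey), Neu (blue) and Neu+NETS (orange), with the mean as a horizontal line and the SD as an error bar. Most genes have Neu lowest and Neu+NETS highest, such as Eif2b3 (4.10, 7.03 and 10.2 FPKM in Neu, CTR and Neu+NETS), while Eif4ebp1 is high in both co-culture groups and Eif1b is highest in Neu.

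All 3 listed subunits of eIF2, the GTP-binding carrier of the initiator tRNA, were called lower in Neu and higher in Neu+NETS than in CTR. With the eIF2-like carriers Eif2a and Eif2d, 4 of 5 genes were called lower and 1 higher in Neu, and 4 higher and 0 lower in Neu+NETS. The gene of the beta subunit, Eif2s2 (GRCm39 chr2:154713330-154734855, minus strand), read 31.7, 31.2, 30.8 and 29.7 FPKM in CTR, 24.7, 24.4, 23.4 and 23.4 in Neu and 42.8, 41.4, 43.6 and 43.9 in Neu+NETS. The gene of the gamma subunit, Eif2s3x (GRCm39 chrX:93232313-93256315, minus strand), read 130.4, 126, 124 and 119 FPKM in CTR, 99.8, 102, 100.3 and 99.1 in Neu and 156, 164, 159.8 and 154 in Neu+NETS. For both genes the 3 groups were fully separate, with Neu lowest and Neu+NETS highest. Eif2s2 fell 1.24-fold in Neu (-0.31 ± 0.032, adjusted p = 3.2e-07) and rose 1.34-fold in Neu+NETS (0.43 ± 0.032, adjusted p = 9.6e-09). Eif2s3x fell 1.20-fold (-0.26 ± 0.031, adjusted p = 1.5e-06) and rose 1.23-fold (0.30 ± 0.031, adjusted p = 4.7e-07).

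Eif2s1, the alpha subunit that stress kinases phosphorylate, went from 69.6 ± 1.68 FPKM in CTR to 50.2 ± 1.42 in Neu (-0.42 ± 0.031, adjusted p = 5.2e-09) and 89.9 ± 2.05 in Neu+NETS (0.32 ± 0.031, adjusted p = 2.3e-07). Eif2s3y, the Y-linked gamma subunit gene, was not listed. Outside the eIF2 complex stand 2 factors that can bring initiator tRNA to the ribosome on their own, Eif2a and Eif2d. Eif2d was called in both, at -0.17 ± 0.037 in Neu and 0.26 ± 0.037 in Neu+NETS. Eif2a rose in Neu, from 20.9 ± 0.350 to 22.6 ± 0.558 FPKM (0.17 ± 0.035, adjusted p = 5.7e-04), and its value in Neu+NETS was 0.01 ± 0.035 (adjusted p = 0.836).

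All 5 subunits of eIF2B, the exchange factor that reloads eIF2 with GTP and whose mutations cause vanishing white matter disease, were called lower in Neu and higher in Neu+NETS. The summed FPKM of the 5 genes ran from 123 to 132 in CTR, from 96.5 to 102 in Neu and from 156 to 158 in Neu+NETS. The gamma and delta subunits moved most. Eif2b3 (GRCm39 chr4:116876599-116944049, plus strand) read 6.92, 7.12, 6.73 and 7.35 FPKM in CTR, 4.17, 3.92, 4.23 and 4.07 in Neu and 9.52, 10.2, 10.2 and 11.1 in Neu+NETS. Eif2b4 (GRCm39 chr5:31344902-31350774, minus strand) read 13.1, 15.2, 13.0 and 14.6 FPKM in CTR, 7.22, 7.91, 7.19 and 8.84 in Neu and 18.7, 18.9, 18.0 and 17.4 in Neu+NETS. No library of either gene overlapped another group.

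Eif2b3 fell 1.65-fold in Neu (-0.72 ± 0.048, adjusted p = 1.2e-09), rose 1.40-fold in Neu+NETS (0.49 ± 0.047, adjusted p = 2.3e-07) and stood 2.31-fold higher in Neu+NETS than in Neu (1.21 ± 0.048, adjusted p = 8.1e-13). Eif2b4 fell 1.73-fold (-0.79 ± 0.069, adjusted p = 3.7e-08), rose 1.26-fold (0.34 ± 0.068, adjusted p = 5.9e-04) and stood 2.18-fold higher in Neu+NETS than in Neu (1.12 ± 0.069, adjusted p = 2.2e-10). The catalytic subunit Eif2b5 (GRCm39 chr16:20317567-20328073, plus strand) read 43.4, 42.6, 41.6 and 43.3 FPKM in CTR, 31.5, 33.0, 34.0 and 35.5 in Neu and 52.1, 54.5, 51.0 and 54.7 in Neu+NETS. The groups were again separate, with changes of -0.29 ± 0.034 (adjusted p = 1.1e-06) and 0.26 ± 0.034 (adjusted p = 6.3e-06). The regulatory subunits Eif2b1 and Eif2b2 had log2 fold changes of -0.27 ± 0.039 and -0.16 ± 0.039 in Neu. In Neu+NETS they had 0.32 ± 0.039 and 0.11 ± 0.039, and the value of Eif2b2 (adjusted p = 0.0269) was not called when CTR replicate 1 or 3 or Neu+NETS replicate 1 or 3 was left out (adjusted p up to 0.0818, lowest log2 fold change 0.091).

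eIF3 is the largest initiation factor, a scaffold on the small ribosomal subunit that binds eIF4G and the mRNA. Of its 14 listed genes 11 were called lower and 2 higher in Neu, and 7 higher and 1 lower in Neu+NETS, with medians of -0.19 and 0.10 (all tested genes 0.02 and 0.00021). Their summed FPKM ran from 1086 to 1115 in CTR, from 924 to 945 in Neu and from 1198 to 1217 in Neu+NETS. The falls in Neu were uneven across the complex. Eif3b, a core subunit, went from 159 ± 3.89 to 105 ± 1.03 FPKM (-0.54 ± 0.025, adjusted p = 1.1e-11), and Eif3l, a subunit that budding yeast lacks, from 105 ± 3.03 to 70.9 ± 2.80 (-0.51 ± 0.029, adjusted p = 1.8e-10). The subunits Eif3c and Eif3e stood at -0.07 ± 0.024 (adjusted p = 0.0237) and -0.02 ± 0.035 (adjusted p = 0.726). The low values of Eif3c, Eif3k (-0.12 ± 0.044) and Eif3m (-0.09 ± 0.031) in Neu lost their call in 7, 7 and 5 of 22 alternative settings, with adjusted p up to 0.417, 0.164 and 0.263. Among these, the left-out libraries were CTR replicate 3 and Neu replicates 1 and 3 for Eif3c, replicates 1 and 4 of CTR and of Neu for Eif3k, and CTR replicate 1 and Neu replicate 4 for Eif3m.

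Eif3h, the most abundant eIF3 transcript (GRCm39 chr15:51649954-51728919, minus strand), read 185, 179, 185 and 192 FPKM in CTR, 193, 191, 191 and 185 in Neu and 195, 197, 204 and 204 in Neu+NETS. CTR and Neu overlapped and Neu+NETS lay above both. Its fitted changes against CTR were 0.09 ± 0.028 in Neu (adjusted p = 0.0092, lost with limma on FPKM) and 0.06 ± 0.028 in Neu+NETS (adjusted p = 0.0773). Eif3f, which like Eif3h carries an MPN domain, was singled out after its values were seen, since it moved against most of the complex. It read 63.2, 58.6, 61.0 and 59.5 FPKM in CTR, 61.9, 62.5, 62.8 and 65.8 in Neu and 54.5, 55.0, 55.2 and 51.6 in Neu+NETS. CTR and Neu overlapped, and all Neu+NETS libraries were below both. Eif3f fell 1.16-fold in Neu+NETS against CTR (-0.21 ± 0.032, adjusted p = 3.8e-05) and 1.26-fold against Neu (-0.33 ± 0.032, adjusted p = 9.7e-08), and its value in Neu was 0.12 ± 0.032 (adjusted p = 0.0050, lost with limma on FPKM).

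The FPKM ratio of Eif3f to Eif3b was 0.382 ± 0.0112 in CTR, 0.601 ± 0.0122 in Neu and 0.307 ± 0.0102 in Neu+NETS, without overlap. In Neu+NETS the largest eIF3 value against CTR was that of Eif3j1, a loosely bound subunit (0.37 ± 0.032, adjusted p = 6.1e-08). Eif3j2 is a close copy of Eif3j1 on another chromosome, so the split of reads between them is uncertain. The sum of both counts had changes of -0.41 ± 0.035 in Neu (adjusted p = 2.0e-08) and 0.33 ± 0.035 in Neu+NETS (adjusted p = 5.1e-07), an alternative chosen after seeing the data. Values for Eif3a, Eif3d, Eif3g and Eif3i in Neu were -0.21 ± 0.025, -0.17 ± 0.027, -0.35 ± 0.030 and -0.21 ± 0.040, all called. In Neu+NETS Eif3a (0.12 ± 0.025), Eif3c (0.17 ± 0.024), Eif3e (0.20 ± 0.035) and Eif3m (0.24 ± 0.031) were called higher, and Eif3d (-0.05 ± 0.027) and Eif3g (0.02 ± 0.030) were not called. Both limma fits called Eif3g higher there. Eif3i was also called higher in Neu+NETS, with log2 fold changes of 0.075 to 0.160 over all settings. Its call was lost with no low-count filter and without CTR replicate 1, 3 or 4 or Neu+NETS replicate 1, 2 or 3 (adjusted p up to 0.115).

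Start-proximal sequence was compared for the members with a RefSeq promoter window (build GRCm38.p6, 250 bases before to 50 after each start). The table holds 39 of the 64 genes, 37 of them tested. The ETS core CCGGAAG, searched on both strands, was found in 14 of those 37 genes (37.8%), in 20.2% of 10359 tested genes with a window and in 9.93% of all 27025 genes with one. It was present in 5 of the 10 eIF3 genes with a window, and 1 match in each is shown to let the sites be compared. The match is in capitals with 15 bases on each side, on the gene's strand, so that a match on the other strand reads CTTCCGG:
Eif3c: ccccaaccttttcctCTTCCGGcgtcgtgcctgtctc
Eif3d: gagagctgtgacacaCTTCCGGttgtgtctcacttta
Eif3g: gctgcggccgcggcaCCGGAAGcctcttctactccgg
Eif3l: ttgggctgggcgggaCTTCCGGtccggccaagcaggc
Eif3m: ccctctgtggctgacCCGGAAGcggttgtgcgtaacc
On GRCm38.p6 these stretches lie at chr7:126566379-126566415 (Eif3c, minus strand), chr15:77970873-77970909 (Eif3d, minus), chr9:20898613-20898649 (Eif3g, minus), chr15:79075173-79075209 (Eif3l, plus) and chr2:105017061-105017097 (Eif3m, minus), with matches that begin 34, 70, 44, 35 and 55 bases before the start. The 5 genes were all called lower in Neu, by 0.07 (Eif3c) to 0.51 (Eif3l) in size on the log2 scale. Of the 14 members with the core 13 were called lower in Neu and 1 higher (median -0.19), and of the 23 without it 16 were lower and 3 higher (median -0.22).

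In the eIF4 group, which binds the cap, bridges the mRNA to the ribosome and unwinds the leader, 7 of 11 tested genes were called lower and 1 higher in Neu. In Neu+NETS 6 were called higher and 4 lower, where 21.6% and 23.7% of all tested genes were. The lower calls of Eif4a2 and Eif4g1 there were lost with limma on FPKM. The summed FPKM of the 13 listed genes ran from 891 to 908 in CTR, from 726 to 737 in Neu and from 954 to 977 in Neu+NETS. Eif4g2, which encodes the eIF4G-like scaffold DAP5 that lacks the eIF4E-binding part (GRCm39 chr7:110666957-110682237, minus strand), read 131, 125, 127 and 127 FPKM in CTR, 79.5, 80.1, 79.2 and 82.3 in Neu and 149, 151, 147 and 153 in Neu+NETS. The groups were fully separate. Eif4g2 fell 1.53-fold in Neu (-0.61 ± 0.019, adjusted p = 9.5e-14), rose 1.14-fold in Neu+NETS (0.18 ± 0.019, adjusted p = 4.9e-07) and stood 1.74-fold higher in Neu+NETS than in Neu (0.80 ± 0.019, adjusted p = 1.3e-15).

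Eif4g1, the main scaffold that holds eIF4E and eIF4A together, fell in Neu from 144 ± 1.79 to 98.7 ± 3.25 FPKM (-0.49 ± 0.022, adjusted p = 6.5e-12). In Neu+NETS it read 139.8 ± 2.53 FPKM, with a change of -0.09 ± 0.022 (adjusted p = 0.0031) that limma on FPKM did not call. The FPKM ratio of Eif4g2 to Eif4g1 was 0.889 ± 0.0270 in CTR, 0.814 ± 0.0133 in Neu and 1.07 ± 0.0113 in Neu+NETS, without overlap. Eif4g3, a less abundant scaffold, read 8.70 ± 0.375 FPKM in CTR, with 0.08 ± 0.038 in Neu (adjusted p = 0.0887) and 0.27 ± 0.038 in Neu+NETS (adjusted p = 1.6e-05). The Neu value was called higher in 5 of 22 alternative settings, among them DESeq2 (adjusted p down to 0.0101). Eif4e, the cap-binding protein, fell from 31.9 ± 0.947 to 22.1 ± 0.666 FPKM in Neu (-0.47 ± 0.033, adjusted p = 1.9e-09) and rose to 36.3 ± 0.972 in Neu+NETS (0.14 ± 0.033, adjusted p = 0.0025). Of its homologs, Eif4e2 moved alike (-0.20 ± 0.032 and 0.14 ± 0.032). Eif4e3 stood at -0.03 ± 0.061 in Neu (adjusted p = 0.741) and fell in Neu+NETS (-0.36 ± 0.061, adjusted p = 1.1e-04).

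The helicase paralogs moved in opposite directions. Eif4a1, the main eIF4A of growing cells (GRCm39 chr11:69557762-69563143, minus strand), read 255, 251, 246 and 239 FPKM in CTR, 216, 218, 215 and 213 in Neu and 283, 305, 296 and 291 in Neu+NETS. Eif4a2, named here after its values were seen, read 33.4, 32.3, 32.2 and 32.8 FPKM in CTR, 39.8, 41.4, 40.8 and 39.5 in Neu and 29.9, 30.8, 32.3 and 32.4 in Neu+NETS. Neu was the lowest group for Eif4a1 and the highest for Eif4a2, without overlap, and for Eif4a2 the CTR and Neu+NETS ranges overlapped. Eif4a1 fell 1.11-fold in Neu (-0.15 ± 0.027, adjusted p = 1.8e-04) and rose 1.14-fold in Neu+NETS (0.19 ± 0.027, adjusted p = 1.4e-05). Eif4a2 rose 1.29-fold in Neu (0.36 ± 0.032, adjusted p = 3.3e-08) and stood 1.39-fold lower in Neu+NETS than in Neu (-0.47 ± 0.032, adjusted p = 7.1e-10). Its value in Neu+NETS against CTR was -0.11 ± 0.032 (adjusted p = 0.0098, lost with limma on FPKM).

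The FPKM ratio of Eif4a2 to Eif4a1 was 0.132 ± 0.00370 in CTR, 0.187 ± 0.00290 in Neu and 0.107 ± 0.00458 in Neu+NETS, without overlap. Reads of Eif4a1 can be shared with Eif4a-ps4, a close copy named as an eIF4A pseudogene and outside the rule, which is listed at 271 ± 6.34 FPKM in CTR, so the level of Eif4a1 is uncertain. With both counts summed, an alternative chosen after seeing the data, the changes were -0.17 ± 0.024 in Neu and 0.20 ± 0.024 in Neu+NETS. Eif4a3, the eIF4A-like helicase of the exon junction complex, fell in Neu (-0.50 ± 0.037, adjusted p = 4.7e-09) and stood at -0.07 ± 0.037 in Neu+NETS (adjusted p = 0.170). Of the helicase cofactors, Eif4h went down in Neu (-0.22 ± 0.027) and up in Neu+NETS (0.12 ± 0.027). Eif4b stood at -0.01 ± 0.024 in Neu (adjusted p = 0.876; limma on FPKM called it lower, and the sign turned in 7 of 22 alternative settings) and fell in Neu+NETS (-0.21 ± 0.024, adjusted p = 1.9e-06), from 148 ± 1.26 to 132 ± 2.73 FPKM.

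**Figure D4:**
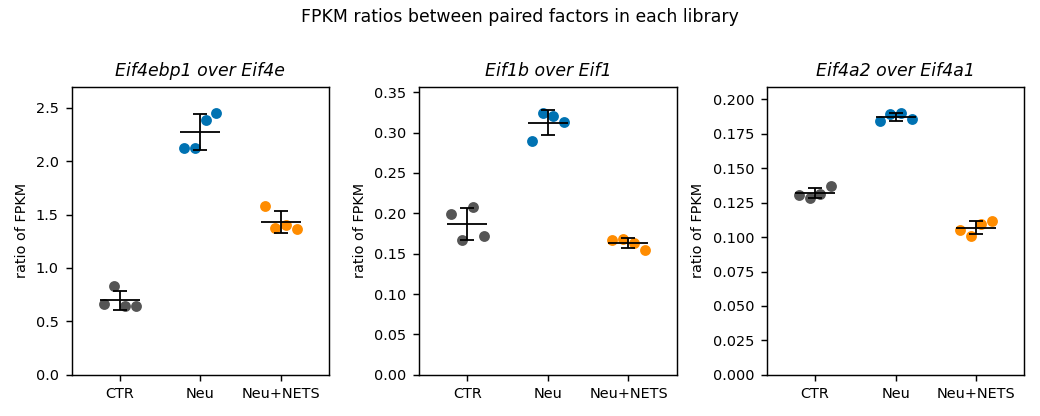
FPKM ratios (y axis, from 0) of Eif4ebp1 to Eif4e, Eif1b to Eif1 and Eif4a2 to Eif4a1 in each of the 4 libraries of CTR, Neu and Neu+NETS, with mean and SD. All 3 ratios are highest in Neu (2.27, 0.312 and 0.187); the Eif4ebp1 to Eif4e ratio in Neu+NETS (1.43) is above CTR (0.697), while the other ratios in Neu+NETS are near or below those of CTR.

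The E-box CACGTG, a palindrome bound by Myc family factors among others, was found in 9 of the 37 tested members with a window (24.3%), in 11.6% of the tested genes with one and in 8.09% of all genes with one. It was present in 4 of 9 genes of the eIF4 group, in 3 of 10 eIF3 genes, and in Eif1b and Eif5a. The stretches below set the 4 eIF4 genes, all called lower in Neu, beside Eif1b and Eif3f, which were called higher there. The E-box is in capitals with 15 bases on each side, on the gene's strand, and which stretches to print was decided after the values were seen:
Eif4e: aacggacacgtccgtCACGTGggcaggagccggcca
Eif4g1: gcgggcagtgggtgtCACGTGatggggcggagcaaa
Eif4a1: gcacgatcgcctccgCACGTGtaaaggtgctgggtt
Eif4h: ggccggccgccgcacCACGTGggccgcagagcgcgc
Eif1b: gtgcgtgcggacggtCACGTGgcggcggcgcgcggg
Eif3f: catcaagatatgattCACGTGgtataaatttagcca
On GRCm38.p6 they lie at chr3:138527189-138527224 (Eif4e, plus strand), chr16:20672658-20672693 (Eif4g1, plus), chr11:69672592-69672627 (Eif4a1, minus), chr5:134639485-134639520 (Eif4h, minus), chr9:120492567-120492602 (Eif1b, plus) and chr7:108934332-108934367 (Eif3f, plus). The motif begins 64, 54, 189, 96, 24 and 68 bases before the start. Of the 9 members with an E-box 7 were called lower and 2 higher in Neu (median -0.21), and of the 28 without it 22 were lower and 2 higher (median -0.23). TGATGNAA, part of ATF4 composite elements, was found on either strand in 1 of the 37 (2.70%), Eif2s3x, and in 2.87% of tested genes with a window. A match is a description of the letters and not a measured binding site.

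Eif4ebp1, whose product holds eIF4E until mTORC1 releases it, was the factor with the largest rise against CTR in both co-culture groups. Eif4ebp1 (GRCm39 chr8:27750357-27766702, plus strand) read 22.2, 25.9, 20.4 and 20.5 FPKM in CTR, 48.2, 47.6, 53.0 and 51.8 in Neu and 55.2, 50.6, 52.0 and 49.8 in Neu+NETS. All 8 co-culture libraries lay above CTR, and Neu and Neu+NETS overlapped. It rose 2.34-fold in Neu (1.23 ± 0.067, adjusted p = 8.9e-11) and 2.25-fold in Neu+NETS (1.17 ± 0.067, adjusted p = 3.2e-10), and the value between the co-culture groups was -0.06 ± 0.065 (adjusted p = 0.481). The FPKM ratio of Eif4ebp1 to Eif4e was 0.697 ± 0.0908 in CTR, 2.27 ± 0.171 in Neu and 1.43 ± 0.102 in Neu+NETS, with ranges of 0.643 to 0.832, 2.13 to 2.45 and 1.36 to 1.58 that did not overlap.

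Eif4ebp2, the second 4E-binding protein (GRCm39 chr10:61264270-61288440, minus strand), read 24.4, 23.5, 24.3 and 24.5 FPKM in CTR, 21.1, 21.8, 21.2 and 23.6 in Neu and 22.8, 23.1, 23.2 and 22.6 in Neu+NETS. Neu+NETS lay below CTR, and the highest Neu library reached the lowest of CTR. The fitted changes were -0.09 ± 0.031 in Neu (adjusted p = 0.0248, lost in 7 of 22 alternative settings, among them without CTR replicate 4 or Neu replicate 1, 2 or 3, with adjusted p up to 0.231) and -0.13 ± 0.031 in Neu+NETS (adjusted p = 0.0029, lost with limma on FPKM). Per transcript length, Eif4ebp2 (24.2 ± 0.446 FPKM) and Eif4ebp1 (22.2 ± 2.55) differed by less than their spread in CTR, while in Neu they stood at 21.9 ± 1.15 and 50.2 ± 2.66. Eif4ebp3 read 0.321 to 0.378 FPKM in the group means and passed no test (adjusted p = 0.803 to 0.917). Eif4enif1, which carries eIF4E into the nucleus and into P-bodies, fell in Neu (-0.38 ± 0.044, adjusted p = 1.3e-06) and stood at 0.13 ± 0.044 in Neu+NETS (adjusted p = 0.0254, lost without CTR replicate 1 or 2 or Neu+NETS replicate 4, with adjusted p up to 0.101).

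Eif5 and Eif6, which act when the large subunit is to join, were called lower in Neu and higher in Neu+NETS. Eif5, the activator of GTP hydrolysis by eIF2 (GRCm39 chr12:111504450-111513186, plus strand), read 63.9, 60.4, 63.4 and 61.7 FPKM in CTR, 48.3, 49.6, 47.4 and 50.1 in Neu and 88.0, 84.3, 87.6 and 88.7 in Neu+NETS. Eif6, which keeps the large subunit from joining early and is needed to make it (GRCm39 chr2:155661752-155668845, minus strand), read 64.3, 65.1, 64.0 and 64.4 FPKM in CTR, 38.7, 35.9, 39.4 and 42.4 in Neu and 81.3, 83.5, 80.0 and 81.9 in Neu+NETS. Both genes had Neu lowest and Neu+NETS highest with no overlap. Eif5 fell 1.23-fold in Neu (-0.30 ± 0.026, adjusted p = 3.4e-08) and rose 1.35-fold in Neu+NETS (0.43 ± 0.026, adjusted p = 5.0e-10). Eif6 fell 1.59-fold (-0.66 ± 0.036, adjusted p = 9.0e-11), rose 1.22-fold (0.29 ± 0.036, adjusted p = 3.8e-06) and stood 1.94-fold higher in Neu+NETS than in Neu (0.96 ± 0.036, adjusted p = 4.2e-13).

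Eif5b, the GTPase that joins the subunits, stood at -0.06 ± 0.025 in Neu (adjusted p = 0.0628) and rose in Neu+NETS (0.15 ± 0.025, adjusted p = 6.4e-05). The Neu value was called lower in 3 of 22 alternative settings, which were both limma fits and the fit without Neu replicate 1. Eif5a, the hypusine-bearing factor that helps both initiation and elongation (GRCm39 chr11:69807546-69812212, minus strand), read 600.5, 617, 601 and 588 FPKM in CTR, 488, 476, 479 and 501 in Neu and 602, 593, 591 and 595 in Neu+NETS. Neu lay below both other groups, which overlapped. Eif5a fell 1.19-fold in Neu (-0.25 ± 0.021, adjusted p = 2.6e-08), and its value in Neu+NETS was -0.06 ± 0.021 (adjusted p = 0.0214), lost in 10 of 22 alternative settings (adjusted p up to 0.582), among them without CTR replicate 1 or 2 or Neu+NETS replicate 2, 3 or 4.

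The 16 factors that were not tested were 13 genes of the Eif1ad series on chromosome 12 (Eif1ad2, Eif1ad3, Eif1ad4, Eif1ad6, Eif1ad7, Eif1ad8, Eif1ad10, Eif1ad11, Eif1ad13, Eif1ad14, Eif1ad15, Eif1ad17 and Eif1ad18), Eif4a3l1, Eif4a3l2 and Eif5a2. None passed 0.201 FPKM in any library.

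Other genes of translation were taken from 6 lists, whose counts stand beside the shares over all tested genes of 26.1% called higher and 27.9% lower in Neu, and 21.6% higher and 23.7% lower in Neu+NETS. Of 9 genes of the eIF2 alpha kinases, the phosphatase and the stress response factor Atf4, 2 were called higher and 5 lower in Neu, and 4 higher and 0 lower in Neu+NETS. Atf4, which is translated when eIF2 alpha is phosphorylated, fell in Neu from 79.7 ± 1.66 to 51.5 ± 2.78 FPKM (-0.57 ± 0.034, adjusted p = 2.3e-10) and rose to 131 ± 2.88 in Neu+NETS (0.67 ± 0.034, adjusted p = 6.2e-11). Ppp1r15a, the inducible subunit of the eIF2 alpha phosphatase, rose in both groups (0.95 ± 0.070 and 0.56 ± 0.070), while the constitutive subunit Ppp1r15b fell in Neu (-0.37 ± 0.027) and stood at 0.01 ± 0.027 in Neu+NETS. Among the kinases, Eif2ak1 had -0.20 ± 0.041 and 0.15 ± 0.041, both called, and Eif2ak3, the kinase PERK, had 0.19 ± 0.065 in Neu (adjusted p = 0.0197) and -0.02 ± 0.065 in Neu+NETS. Eif2ak2 had -0.09 ± 0.035 in Neu (adjusted p = 0.0298) and -0.01 ± 0.035 in Neu+NETS, and Eif2ak4 was not called in either group (-0.03 ± 0.041 and 0.01 ± 0.041).

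Of 24 tested genes of mTORC1 and its regulators 8 were called higher and 10 lower in Neu, and 6 higher and 10 lower in Neu+NETS. The 6 of 24 is near the 21.6% of all tested genes. Ddit4, an inhibitor of mTORC1 induced by stress, went from 9.69 ± 0.329 FPKM in CTR to 64.9 ± 3.07 in Neu (2.80 ± 0.050, adjusted p = 9.8e-17) and read 9.68 ± 0.649 in Neu+NETS (-0.05 ± 0.050, adjusted p = 0.436). Sesn2, a leucine sensor that restrains mTORC1, rose in both groups (1.54 ± 0.060 and 0.70 ± 0.060). Mtor itself fell in both (-0.39 ± 0.047 and -0.31 ± 0.047), as did Larp1, which binds mRNAs of the translation machinery (-0.71 ± 0.028 and -0.27 ± 0.027).

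Of 15 tested eIF4 kinases, poly(A)-binding proteins and eIF4A partners 6 were called higher and 5 lower in Neu, and 10 higher and 1 lower in Neu+NETS. Dhx29, a helicase for structured leaders, fell in Neu (-1.12 ± 0.045, adjusted p = 1.7e-12) and rose in Neu+NETS (0.48 ± 0.043, adjusted p = 1.0e-07). Pdcd4, an inhibitor of eIF4A, rose in Neu (0.46 ± 0.070, adjusted p = 2.3e-05) and stood at -0.10 ± 0.070 in Neu+NETS (adjusted p = 0.286). Paip2, which takes the poly(A)-binding protein off mRNA, rose in both (0.55 ± 0.029 and 0.35 ± 0.029), and so did the poly(A)-binding protein gene Pabpc1 (0.25 ± 0.023 and 0.30 ± 0.023). Mknk1, an eIF4E kinase, rose in Neu and fell in Neu+NETS (0.33 ± 0.041 and -0.18 ± 0.041), and Mknk2 had 0.02 ± 0.043 and 0.01 ± 0.043, neither called.

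Of 10 tested genes of initiator tRNA carriers, recycling and termination 7 were called lower and 1 higher in Neu, and 7 higher and 0 lower in Neu+NETS. They include the recycling factor Abce1 (-0.75 ± 0.025 in Neu and 0.28 ± 0.024 in Neu+NETS), the release factor genes Etf1 (-0.50 ± 0.028 and 0.44 ± 0.028) and Gspt1 (-0.77 ± 0.027 and 0.22 ± 0.027), and the eIF5 mimic Bzw2 (-0.93 ± 0.029 and 0.23 ± 0.028). Of 18 tested elongation factors and modifying enzymes 13 were called lower and 3 higher in Neu, and 5 higher and 3 lower in Neu+NETS. The 3 higher in Neu were the abundant factors Eef1a1 (0.13 ± 0.015) and Eef2 (0.10 ± 0.022) and the eEF2 kinase Eef2k (0.62 ± 0.046). Dhps and Dohh, the enzymes that place hypusine on eIF5A, fell in Neu (-0.37 ± 0.070 and -0.74 ± 0.063) and were not called in Neu+NETS (0.11 ± 0.069 and -0.00 ± 0.062). Of 11 mitochondrial factors 6 were called lower and 0 higher in Neu, with Gfm1, a mitochondrial elongation factor, at -0.50 ± 0.036, and 2 higher and 2 lower in Neu+NETS.

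**Figure D5:**
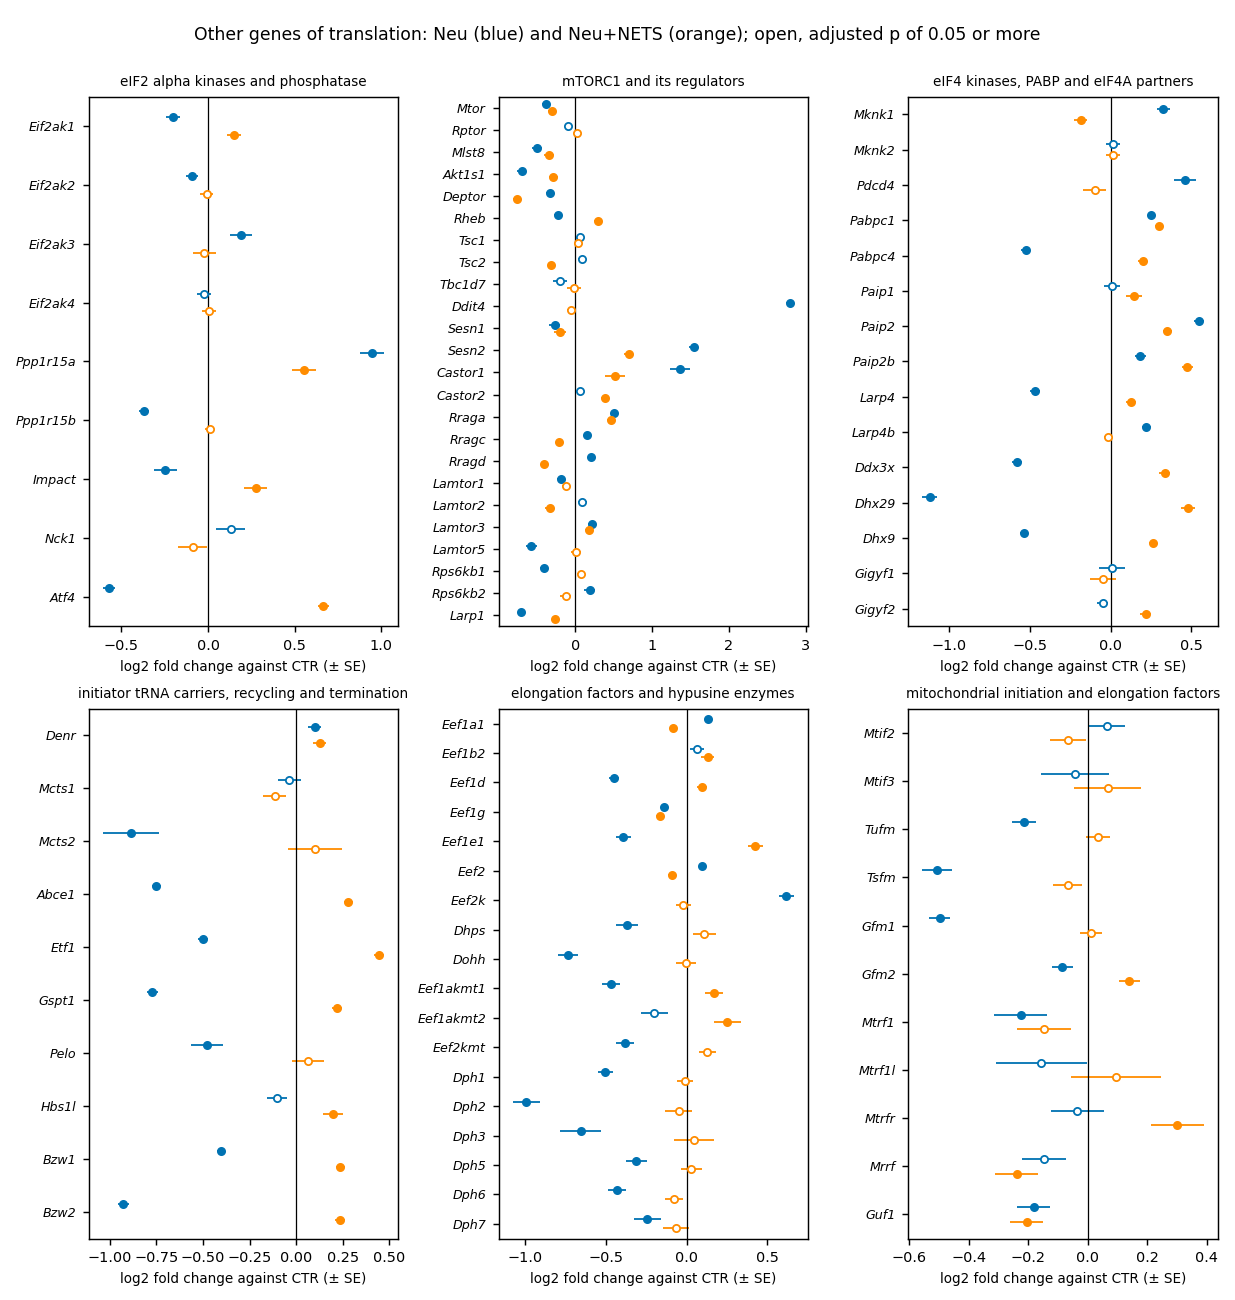
Log2 fold changes against CTR (x axes, points with SE bars; the scales differ between panels) of genes from 6 other lists of translation, for Neu (blue) and Neu+NETS (orange), open where the adjusted p was 0.05 or more. Ddit4 in the mTORC1 panel stands out in Neu at 2.80, and the recycling and termination panel has 7 of 10 genes called lower in Neu and 7 called higher in Neu+NETS.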

How the data were processed

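The deposited table pairs, for each of 12 libraries, a column of estimated counts with a column of FPKM, and all columns were matched to samples by name. Build GRCm39, edgeR, StringTie 1.3.4d and HISAT2 2.0.4 are listed, without roles, in the submitters' processing notes. No source used here states the annotation release, strand setting or filters. The estimated counts are whole numbers that the authors deposited unscaled between libraries, per the file headers and column totals, and 33.0% of values from 2 to 41 are multiples of 4 (25% if even), so 1 fragment seems to stand for 4 units. The deposited FPKM columns are the authors' own, per the file headers, and are not TMM-scaled, so small changes can differ in sign from the fit.

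Genes passing filterByExpr (16387) entered 1 edgeR 4.0.16 quasi-likelihood fit in R 4.3.3 with TMM scaling (factors 0.970 to 1.03), all 12 libraries and 1 mean for each group (biological coefficient of variation 12.5%). For the SE, the log2 fold change was divided by the root of the F statistic. The script was tested on simulated counts with a coefficient of variation of 12.5% for every gene. For Neu against CTR it called 100 of 100 genes changed 2-fold and 5 of 100 changed 1.25-fold, with 7 false calls. At that spread, changes of 1.25-fold were mostly missed. The 48 tested factors had a median SE of 0.033 in Neu against CTR, and smaller changes than 1.25-fold were called among them. The simulated recovery therefore does not describe these factors. Alternatives were limma 3.58.1 on log2(FPKM + 1) and log2(FPKM + 0.1), DESeq2 1.42.0, other scalings, filters, counts divided by 4, 2-group fits, a replicate block and leaving out each library. The members, role groups and lists were chosen with earlier results of these data known. Values per library are given for the 5 called members with the largest change in any comparison (at least 5 FPKM in the higher group) and for the most abundant in CTR of each role group, 16 genes in all, plus Eif3f and Eif4a2, added after their values were seen. From each other list at most 4 called genes per comparison with the smallest adjusted p were eligible to be named, plus 15 regulators fixed by name. Promoter sequences are from RefSeq (GRCm38.p6) and gene spans from the deposited table (GRCm39).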

Additional observations from a re-analysis of the deposited data

Results flagged for a closer look

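In 5 of 144 groups of 4 libraries, 1 library stood apart from the other 3 by Dixon's criterion at 95%, where chance alone gives about 1 in 20 groups. Eif1a read 33.9 FPKM in CTR replicate 1, against 31.2 to 31.6 in the other CTR libraries. Eif1ad read 32.4 in CTR replicate 2, against 29.9 to 30.0. Eif2s1 read 93.0 in Neu+NETS replicate 3, against 88.5 to 89.2, and Eif3d read 64.6 in Neu replicate 4, against 59.1 to 60.0. Eif4e3 read 7.46 in Neu+NETS replicate 2, against 8.65 to 8.89.

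Among same-named rows outside the rule, the processed pseudogene Eif4a-ps4 had a mean of 323 FPKM in Neu+NETS, above its range of 263 to 278 in CTR.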

How the results depend on the processing

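No strong shared effect of the replicate number was seen. Deviations from the group means correlated at -0.05 to 0.04 over 12 pairs of same-numbered libraries of different groups, 0 of them over 0.1. In addition, 0 libraries correlated best with their own number in both other groups. A weak pairing could be hidden by noise in genes with few counts, so these values cannot show that the libraries are unpaired. Fitted with a replicate block, 41, 38 and 44 factors were called in the 3 comparisons, as without it, and the call of 0 factors changed.

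With limma on log2(FPKM + 1) and on log2(FPKM + 0.1), 3 and 3 factors were called lower in Neu+NETS against CTR in place of 7, and 3581 and 3568 genes were called lower in Neu+NETS against Neu in place of 5422. The median log2 fold change over all genes moved in that comparison from -0.05 to 0.10 and 0.12. The cause was not tested. Leaving out 1 library at a time gave 33 to 35 factors lower and 6 to 7 higher in Neu against CTR, 29 to 34 higher and 6 to 7 lower in Neu+NETS against CTR, and 37 to 39 higher and 6 lower in Neu+NETS against Neu. In these fits 48 to 52 factors passed the low-count filter. The counts can therefore include near-zero factors that were not tested in the main fit, and are not a stability range for the same 48.

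Of 1059 values of the 16 named factors under alternatives 1017 kept direction and call, 21 lost the call, 11 gained it and 10 reversed. The reversals were all of values that edgeR did not call. They were Eif1 in Neu against CTR (-0.041 and -0.042 with limma at the larger and smaller pseudocount, and -0.00892 without CTR replicate 1, the lowest of the values with 1 library left out, of which the highest was 0.032 without CTR replicate 4) and, in Neu+NETS against Neu, Eif3h (0.0748 and 0.0752, both called by limma, and 0.0017 with only the 2 groups fitted), Eif4ebp1 (0.048 and 0.049) and Eif4ebp2 (0.063 and 0.066). The cause was not tested.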

Other observations

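The 13 untested genes of the Eif1ad series on chromosome 12, looked at after their values were seen, summed to 0, 3, 0 and 12 units of estimated count in the 4 CTR libraries, 8, 8, 0 and 4 in Neu and 74, 75, 34 and 62 in Neu+NETS. At an apparent 4 units per fragment these are few fragments, and the genes were not tested in the main fit.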
